A study of Mus musculus with 32 samples.

Results

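The response of the parental fibroblast line 3T3-tTA to 5 h without tetracycline was measured in total RNA on 4 hybridizations, which were deposited as 8 of the 32 samples of the series. The members were chosen by their sample titles and labels, not by their values: induced RNA of the parental line in one channel and uninduced RNA of the same line in the other. 3T3-tTA cells are mouse NIH 3T3 fibroblasts that carry the tetracycline-controlled transactivator (tTA) of the TET-OFF system. "Induced" here means that tetracycline had been removed for 5 h and "uninduced" that it was present. The parental line served as the control for 3T3-tTA-eIF4E, the same background with a tetracycline-regulated eIF4E, the protein that binds the 5′ cap of mRNA. Both lines contain tTA, and both were treated alike, so removal of the drug and release of tTA were common to them. The labels do not say whether the medium of the uninduced cells was replaced as well.

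The transactivator is a fusion of the bacterial tetracycline repressor with a viral activation domain. Tetracycline keeps it from binding its operator sequences, and without the drug it binds them and switches on the gene placed next to them. The parental line is not described as carrying a transgene under these operators. Tetracyclines also inhibit the ribosomes of bacteria and of mitochondria, which are related, and they bind metal ions. A control line of this kind therefore records what withdrawal of the drug and handling of the cells do to mRNA levels when no transgene responds.

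Mouse 15K3 arrays carry spotted cDNA clones, and the induced and uninduced RNA, one with Cy3 and one with Cy5, compete for each spot. Each of 15247 clones had 2 adjacent spots, which were averaged. The arrays are called T1, T3, T5 and T7 after the number of their first sample. Induced RNA carried Cy3 on T1 and T7 and Cy5 on T3 and T5, and all values below were turned so that a positive log2 ratio means more RNA without tetracycline. The methods give 2 separate extractions of RNA behind the 4 arrays, with a dye swap made on each, and do not state which arrays share an extraction. The spread between extractions is therefore measured on 2 samples only, and an SD over 4 arrays is not one over 4 independent cultures. Names were available for 570 clones, 424 of them with a current RefSeq symbol. These clones were named because the study had listed them, mostly for a difference in polysomal RNA between the lines, so they are no random sample of the array. cDNA clones do not separate closely related genes, which applies above all to the ribosomal proteins.

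On all arrays together the response was small. The mean log2 ratio over the 4 arrays had an SD of 0.14 across all clones, and the central 95% of clones lay between -0.23 and 0.32. With limma on the means of the 2 extractions and Benjamini-Hochberg adjustment over all clones, 0 of 15247 clones (0%) passed an adjusted p of 0.1 at 1.3-fold or more. The smallest adjusted p was 0.635. An unadjusted p under 0.05 was reached by 979 clones (6.42%), and with the arrays taken as 4 replicates limma also called 0 clones, with 1119 under that limit. With a dye term added to the fit of 4 arrays it called 6 clones, and 1991 were under that limit. The fit on extraction means used, for each clone, the less favourable of the 2 ways to join the arrays into dye-swapped extractions. With T1 and T3 as one extraction and T5 and T7 as the other, limma again called 0 clones. With T1 and T5 as one extraction and T3 and T7 as the other, it called 210, of which 158 were higher and 52 lower without tetracycline, and 17 of them had a name. The sources used here do not say which of the assignments is right, and under the latter any difference between T1 with T3 and T5 with T7 cancels in the extraction means.

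The targeted gene of the series was read first. Eif4e, which the parental line does not induce, was represented by 3 clones. These clones were placed by the difference between the lines that the study lists, so that difference is no check of the labels. Clone H3012A09 read -0.07 on T1, 0.09 on T3, 0.11 on T5 and -0.21 on T7. Clone H3130B02 read 0.27, 0.01, -0.16 and 0.03, and clone H3089A10 read -0.01, 0.27, 0.14 and -0.17 on the same arrays. None of these clones had one sign on all 4 arrays, and their means were -0.02 ± 0.15, 0.04 ± 0.18 and 0.06 ± 0.19 (SD, n = 4 arrays). In 3T3-tTA-eIF4E the same clones had mean log2 ratios of 2.89 ± 0.90, 3.79 ± 0.95 and 2.75 ± 0.55. By the means of all 3 clones, the endogenous cap-binding protein mRNA thus lay close to its uninduced level in the parental line. Single arrays ran from -0.21 to 0.27, so an equal level is not shown.

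Since no clone was called, the clones that moved one way on every array were described. All 4 arrays had one sign for 2523 of 15247 clones (16.5%), of which 1280 were higher (8.4%) and 1243 lower (8.15%) without tetracycline. Among the 570 named clones there were 104 (18.2%), 45 higher and 59 lower. A mean change of at least 1.3-fold as well was found for 127 clones of the array (0.833%), 94 higher and 33 lower, and 9 of these had a name. Bnip3, Mpdu1, 1700071K18Rik and Fubp1 were higher, and Spag9, Sars, Kcnn4, Dhdds and Mpp1 were lower. Bnip3, Mpdu1, Spag9, Sars and Dhdds belong to a list that the study chose partly on these 4 arrays, for a difference between the lines. Their values are therefore described without p-values, and a call of any of them carries no weight.

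**Figure D1:**
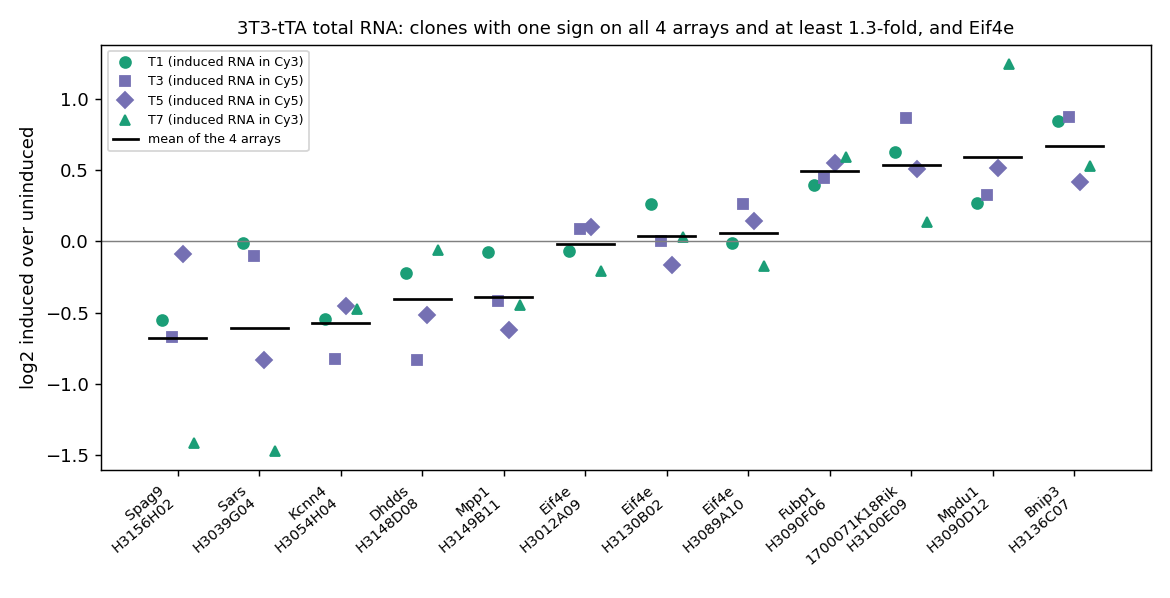
Log2 ratio of induced over uninduced total RNA in 3T3-tTA (y axis) for the 9 named clones with one sign on all 4 arrays and at least 1.3-fold, and for the 3 Eif4e clones, ordered by their mean (x axis, gene and clone). Symbols stand for single arrays, colours for the dye of the induced RNA and black bars for the mean. Kcnn4 and Fubp1 had arrays close to each other, while T7 lay farthest from 0 for Sars, Spag9 and Mpdu1, with T5 next to it for Sars.

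Bnip3, a mitochondrial BH3-type protein that is induced by hypoxia and takes part in mitophagy, had the highest mean of these 9 clones. It read 0.85 on T1, 0.88 on T3, 0.42 on T5 and 0.53 on T7, a mean of 0.67 ± 0.23 or 1.59-fold. Both dye orientations gave a high and a lower array, so the values did not follow the dye. In 3T3-tTA-eIF4E the 4 arrays lay between 0.03 and 0.21, with a mean of 0.13 ± 0.09. The study chose this clone for a difference between the lines, so the gap restates that choice.

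Kcnn4 encodes the calcium-activated potassium channel of intermediate conductance. It read -0.54, -0.83, -0.45 and -0.48 on T1, T3, T5 and T7, a mean of -0.58 ± 0.17 or 1.49-fold lower. All arrays were low and none stood apart by the dye. The limma p was 0.00375 before and 0.635 after adjustment. With T1 and T5 taken as one extraction the clone was called, with an adjusted p of 0.00658 by limma. In 3T3-tTA-eIF4E its mean was -0.47 ± 0.82, with single arrays from -1.503 to 0.36. The difference between the lines was 0.11 ± 0.40 (standard error; 95% interval -0.91 to 1.13, adjusted p = 1.00 by limma).

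Fubp1, a single-stranded DNA-binding protein named for the far upstream element of Myc, had the least spread of the 9 clones. It read 0.40 on T1, 0.45 on T3, 0.55 on T5 and 0.60 on T7, a mean of 0.50 ± 0.09 or 1.41-fold. The limma p was 0.00385 before and 0.635 after adjustment, and the adjusted p was 0.00827 with T1 and T5 as one extraction, where the clone was called. Its spots were dim: on the arrays P11 and P15, which carried total RNA of induced 3T3-tTA cells in one channel and for which scanner intensities were used, the signal was 1.68 and 1.31 times the local background, against medians of 2.99 and 2.11 over all clones.

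1700071K18Rik, a gene known by its RIKEN clone only, read 0.63, 0.87, 0.51 and 0.14, a mean of 0.54 ± 0.31 (adjusted p = 0.635 by limma). Mpp1, a membrane-associated scaffold protein of the guanylate kinase family, read -0.07, -0.42, -0.62 and -0.44, a mean of -0.39 ± 0.23 (adjusted p = 0.635 by limma), and its signal on P11 and P15 was 2.02 and 1.61 times the background, below both medians. With T1 and T5 as one extraction limma called both, with adjusted p-values of 0.00658 and 0.0222. Both were also one-signed in the same direction on all 4 arrays of 3T3-tTA-eIF4E, with means of 0.52 ± 0.38 and -0.28 ± 0.19. In that line 37 of the 570 named clones had one sign on all 4 arrays, against 7.42% of all clones. Across the named clones 10 of 570 kept one sign on all 8 arrays, and across the whole array 384 of 15247 did.

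The remaining clones depended more on single arrays. Sars, the seryl-tRNA synthetase, read -0.01 on T1, -0.11 on T3, -0.83 on T5 and -1.47 on T7. Spag9, a scaffold protein of the JNK pathway, read -0.55, -0.67, -0.09 and -1.42. Mpdu1, which the endoplasmic reticulum needs for the use of dolichol-linked mannose, read 0.27, 0.33, 0.52 and 1.25. For these 3 clones T7 was farthest from 0. Dhdds, the synthase that makes the chain of dolichol, read -0.22, -0.84, -0.51 and -0.06, with the larger changes on both arrays whose induced RNA carried Cy5. On P11 and P15 the signal of these 4 clones was between 1.19 and 2.57 times the background.

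Of the list of clones that the study chose for a difference between the lines, 29 could be placed, and their share of the difference that lay in the parental line is a description only. The 5 clones listed as lower in 3T3-tTA-eIF4E were Bnip3, Mpdu1, Shisa5, Dcn and Cyhr1. Their means in 3T3-tTA were all above 0, with a median of 0.59, whereas their median in 3T3-tTA-eIF4E was -0.06. Dcn, the matrix proteoglycan decorin, read 1.28 on T1, 0.41 on T3, -0.05 on T5 and 0.17 on T7. Its mean of 0.45 ± 0.58 rested on T1. Shisa5, a protein of the endoplasmic reticulum induced by p53, read -0.16, 0.33, 1.44 and 1.498 and had the highest mean of all named clones, 0.78 ± 0.82. Its spots were dim, with a signal of 1.83 times the background on P11 and 0.99 on P15. Cyhr1 read -0.40, 0.62, 1.06 and 0.60 on clone H3141C07, with a mean of 0.47 ± 0.62. The signal of this clone was 0.84 times the background on P11 and 6.57 on P15. Another clone of Cyhr1 had a mean of 0.04 in 3T3-tTA, a gap of 0.43. Among the 18 genes with several named clones the median gap between clones was 0.06 and the widest 0.44, for Cdc14b.

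The other 24 clones of that list were chosen as higher in 3T3-tTA-eIF4E, and 20 of them had a mean below 0 in 3T3-tTA. Their median was -0.13 in the parental line and 0.34 in 3T3-tTA-eIF4E. Col1a2, a chain of type I collagen, was the most even of them, with -0.29, -0.39, -0.44 and -0.31 and a mean of -0.36 ± 0.07. Bgn, the matrix proteoglycan biglycan, read -0.11, -0.46, -0.61 and -0.13. Tubb5, a beta-tubulin, read 0.17, -0.63, -0.88 and 0.07, low on both arrays whose induced RNA carried Cy5. Plin1, the protein that coats lipid droplets, read -1.02 on T1 and between -0.18 and -0.10 on the other arrays, and its 2 spots on one array differed by 1.61.

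The gene lists were read by counts and medians beside those of all clones, without a test of a list. Over all clones the median log2 ratio was -0.00, 16.5% had one sign on all 4 arrays and 6.42% had an unadjusted limma p under 0.05. With the larger p kept, no list held a called clone, and list medians lay between -0.14 and 0.05. With T1 and T5 as one extraction, the called clones included the list members Ftl1, Timeless and Mpv17. Bnip3, Mpdu1, Sars, Dcn and Dhdds were called too, but the study had chosen them partly on these arrays. Means were below 0 for 7805 of all 15247 clones and 317 of the 570 named clones. The most one-sided lists were the translation factors, with 12 of 14 clones above 0 (medians of 0.23 on T1, 0.10 on T3, -0.07 on T5 and -0.11 on T7), the mitochondrial list, with 15 of 18 below 0, and the sterol list, with 6 of 7 below 0.

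**Figure D2:**
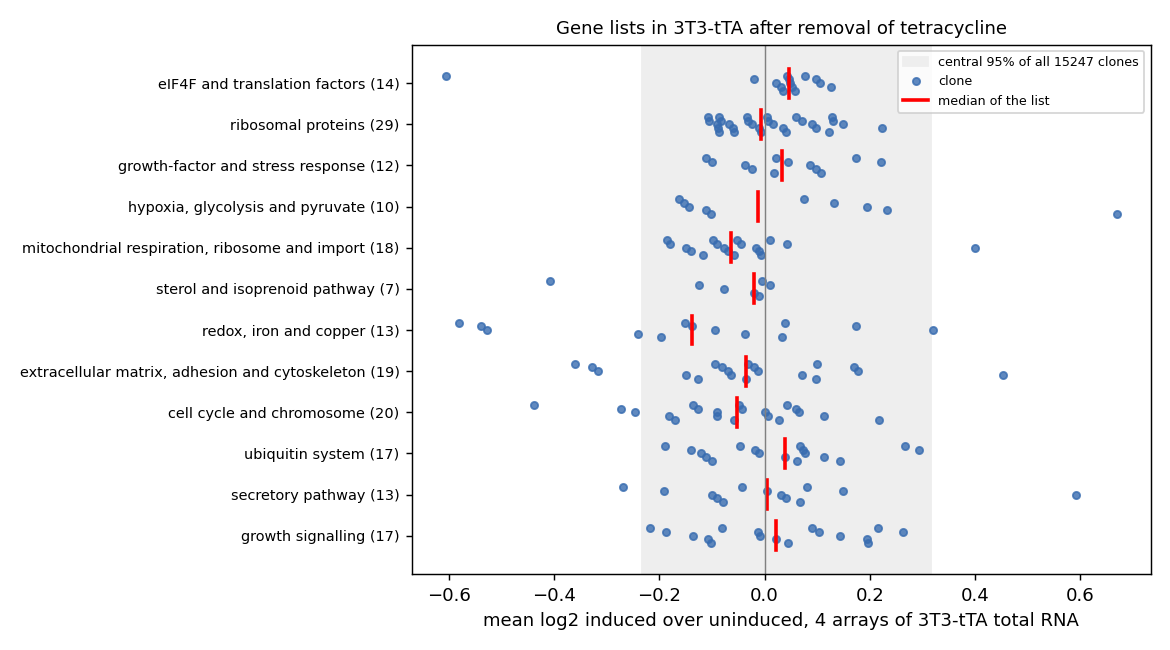
Mean log2 ratio of induced over uninduced total RNA over the 4 arrays of 3T3-tTA (x axis) for the clones of 12 gene lists (y axis, number of clones in brackets). Blue points are clones, red bars list medians, and the grey band covers the central 95% of all clones, from -0.23 to 0.32. Most clones of every list lay inside the band.

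Among the eIF4F and translation factors, 14 clones, 3 of them Eif4e, the median was 0.05 and 1 clone had one sign on all arrays, Sars. The other members named here changed sign between arrays. Eif4g1, the scaffold that eIF4E binds, read 0.24, 0.23, -0.19 and -0.16, with a mean of 0.03 ± 0.24. Eif1, which acts in the choice of the start codon, read 0.21, 0.59, -0.09 and -0.33, with a mean of 0.10 ± 0.40 that ran from -0.07 to 0.27 with 1 array left out. Eef1e1, a component of the multi-synthetase complex, had a mean of 0.11 ± 0.36, from -0.05 to 0.26 with 1 array left out. Paip1, a partner of the poly(A)-binding protein, had a mean of 0.13 ± 0.12 and was below 0 on T1 alone. By the larger p of both assignments, none of the 14 clones had an unadjusted p under 0.05. Taking T1 and T5 as one extraction, limma called Sars, which the study had chosen partly on these arrays.

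The 29 clones of ribosomal proteins had a median of -0.01, and their means ran from -0.11 to 0.22. One sign on all arrays was found for 6 (20.7%), 5 higher and 1 lower, and 1 clone had an unadjusted p under 0.05. The higher ones were 2 clones of Rpl23, with means of 0.15 and 0.13, and single clones of Rps24, Rpl37 and Rpl15. Rpl15 read 0.24, 0.09, 0.28 and 0.29 on clone H3087E03, with a mean of 0.22 ± 0.09 (0.13 by the first and 0.32 by the second spot of each pair), but the other clone of this gene had a mean of -0.06.

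For respiration, mitochondrial ribosome and import, 18 clones had a median of -0.06. Of these, 3 were lower on all 4 arrays. The list median was -0.02 on T1, 0.06 on T3, -0.11 on T5 and -0.21 on T7, and with 1 array left out it ran from -0.12 to -0.01. Ndufv2, a subunit of complex I, read -0.08, -0.10, -0.34 and -0.22, with a mean of -0.19 ± 0.12. Sdha, the flavoprotein of complex II, had a mean of -0.18 ± 0.24. Tomm20, an import receptor of the outer membrane, had means of -0.15, -0.10 and 0.01 by its 3 clones. Mrpl13 and Mrpl18 of the mitochondrial ribosome had means of -0.04 and -0.07. Of the 3 clones with a mean above 0, Tomm20 and Timm23, another import component, lay at 0.01 and 0.04, and Mpv17, a protein of the inner membrane, read 0.89, 0.59, 0.27 and -0.15. With the larger p of both assignments kept, none of the 18 clones had an unadjusted p under 0.05. Taking T1 and T5 as one extraction, limma called Mpv17, with an adjusted p of 0.0461.

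Genes of hypoxia, glycolysis and pyruvate were represented by 10 clones, and 6 of them (60%) had one sign on all arrays, 3 in each direction. Beside Bnip3 the higher ones were Pfkm, the muscle form of phosphofructokinase, with a mean of 0.23 ± 0.21 (adjusted p = 0.635 by limma), and Pdha1 of pyruvate dehydrogenase with 0.07. All 3 lower ones were clones of Mdh1, the cytosolic malate dehydrogenase, with means of -0.16, -0.15 and -0.14. Since 3 of the 6 clones report 1 gene, the share of one-signed clones in this list does not stand for 6 genes. Ldhb, a subunit of lactate dehydrogenase, read 0.70, 0.23, -0.36 and 0.20, and Siah2, a ubiquitin ligase of the hypoxia response, had a mean of -0.11.

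The list of redox, iron and copper genes had the lowest median, -0.14, over 13 clones. Its lowest members were the 3 clones of Ftl1, the ferritin light chain, which stores iron, and its highest was Tfrc, the transferrin receptor, which takes iron up. Tfrc read 0.23, 0.25, 0.20 and 0.60, a mean of 0.32 ± 0.19 (adjusted p = 0.635 by limma). The Ftl1 clones had means of -0.58, -0.54 and -0.53, but each was positive on T1, and their SDs lay between 0.87 and 1.04. These 3 clones come from neighbouring wells of one plate. Prdx4, a peroxiredoxin of the endoplasmic reticulum, was lower on all arrays with a mean of -0.20.

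Growth-factor and stress response genes, 12 clones, had a median of 0.03. Tnfrsf9, a receptor of the TNF family, was the only one with one sign on all arrays, at 0.30, 0.21, 0.12 and 0.26 and a mean of 0.22 ± 0.08. Jun had a mean of 0.02. The metallothionein Mt2, which binds zinc and copper, read 0.38, 0.56, -0.09 and -0.16, and the chaperone Hspa8 read 0.83, 0.03, -0.67 and 0.24.

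In the sterol and isoprenoid pathway Dhdds was the only one of 7 clones past 1.3-fold, and it was under that fold after centring by printed position. Hmgcs1, which makes the precursor of mevalonate, was lower on all arrays with a mean of -0.12 ± 0.10, and Mvd, a later enzyme of that pathway, had a mean of -0.02. In the secretory pathway, 13 clones with a median of 0.01, Mpdu1 was highest and Cope, a coatomer subunit, lowest, with a mean of -0.27 ± 0.31. Laptm4a, a lysosomal membrane protein, was lower on all arrays with a mean of -0.19 ± 0.10.

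Extracellular matrix, adhesion and cytoskeleton, 19 clones, had a median of -0.03 and spanned -0.36 for Col1a2 to 0.45 for Dcn, both named above. This median lay between opposite readings by the dye, at 0.17 on T1 and 0.06 on T7, where induced RNA carried Cy3, and at -0.15 on T3 and -0.22 on T5, where it carried Cy5. The integrin subunits Itgb1, Itga3 and Itga5 had means of 0.18, 0.10 and -0.02. Of 20 clones for cell cycle and chromosome 5 had one sign on all arrays, 4 of them lower. Cdc25a, a phosphatase that activates cyclin-dependent kinases, read -0.40, -0.38, -0.20 and -0.11, with a mean of -0.27 ± 0.14 (adjusted p = 0.635 by limma). Cks1b, Cetn3 and Smc2 were lower on all arrays with means of -0.18, -0.17 and -0.14, and Rpa1, a single-stranded DNA-binding protein of replication, was higher with 0.22.

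The ubiquitin system, 17 clones, and growth signalling, 17 clones, had medians of 0.04 and 0.02. Rbx1, the RING subunit of cullin ligases, read -0.13, -0.12, -0.29 and -0.22. Usp9x and Rnf20 had means of 0.27 and 0.29, with Usp9x high on both arrays whose induced RNA carried Cy3 and Rnf20 on T5 and T7. Chuk, the kinase IKK-alpha, read 0.20, 0.14, 0.14 and 0.30, with a mean of 0.20 ± 0.08 in 3T3-tTA and 0.29 ± 0.09 in 3T3-tTA-eIF4E. Gnai2, an inhibitory G-protein subunit, was lower on all arrays with a mean of -0.22 ± 0.13.

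The clones listed for a change in polysomal RNA were read in total RNA of the parental line as well. Those listed as higher, 301 clones, had a median of -0.03 there, and those listed as lower, 242 clones, had a median of 0.01. One sign on all arrays was found for 18.9% and 16.1% of them. Whether the polysomal arrays used the same RNA extracts is not stated.

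Duplicate spots correlated at 0.77 to 0.83 on the 4 arrays. Between arrays of the same dye orientation the turned ratios correlated at 0.37 for T1 and T7 and 0.42 for T3 and T5. Between opposite orientations the correlation was -0.16 for T1 and T3, -0.17 for T1 and T5, -0.33 for T3 and T7 and 0.14 for T5 and T7, so arrays of one orientation were more alike than arrays of opposite orientation. Split into independent combinations of the 4 arrays, 41.7% of the variance across clones lay in the difference between dyes, 28.1% in the mean response, 20.9% in the difference of T1 and T3 from T5 and T7, and 9.32% in the rest. The dye difference cancels in the mean, and its correlation with the mean response across clones was -0.01.

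The difference of T1 and T3 from T5 and T7 was large for single genes. These arrays lay on opposite sides of 0 for 1258 of 15247 clones (8.25%) and for 73 of 570 named clones (12.8%). For the combination of T1 and T5 against T3 and T7 the count was 568 clones. Both pairs passed 1.3-fold in opposite directions for 18 clones, of which 3 had a name, against 1 clone for the latter combination. By the dye, T1 and T7 against T3 and T5, the arrays lay on opposite sides for 3900 clones (25.6%), and both pairs passed 1.3-fold for 248. The genes of this paragraph and the next were picked after their values had been seen.

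**Figure D3:**
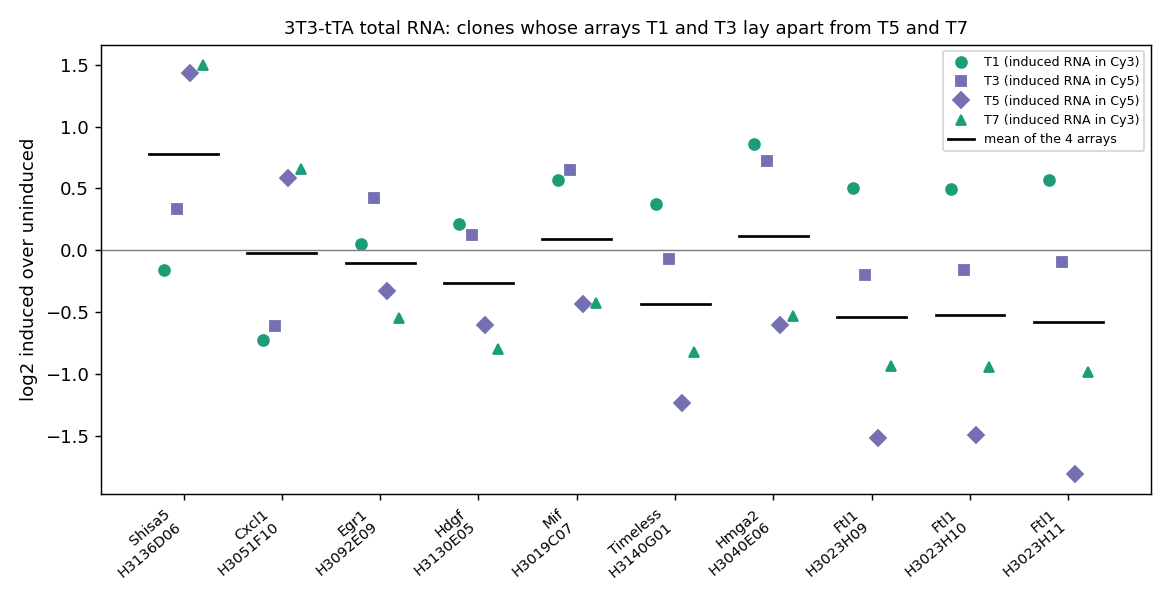
Log2 ratio of induced over uninduced total RNA in 3T3-tTA (y axis) for 10 clones (x axis) picked because T1 and T3 lay apart from T5 and T7. Symbols are single arrays, colours the dye of the induced RNA and black bars the mean of the 4 arrays. For Cxcl1, Mif and Hmga2 each pair agreed within 0.15 although its arrays had opposite dyes, and the pairs had opposite signs.

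The chemokine Cxcl1 read -0.72 on T1 and -0.61 on T3 but 0.58 on T5 and 0.66 on T7, with a mean of -0.02. Mif, a cytokine that inhibits macrophage migration, read 0.57 and 0.65 on T1 and T3 and -0.44 and -0.43 on T5 and T7. Hmga2, a chromatin protein of proliferating mesenchymal cells, read 0.86 and 0.72 against -0.60 and -0.53. The immediate early gene Egr1 read 0.05 and 0.42 against -0.33 and -0.55. Hdgf, a growth factor of the nucleus, read 0.21 and 0.12 against -0.60 and -0.80.

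Ftl1 and Timeless belonged to the same pattern with a dye difference on top. Clone H3023H11 of Ftl1 read 0.57 and -0.10 on T1 and T3 against -1.81 and -0.99 on T5 and T7. Timeless, a protein of the replication fork, read 0.38 and -0.07 against -1.24 and -0.82. With T1 and T5 taken as one extraction, limma called both genes, with adjusted p-values of 0.0054 for that clone of Ftl1 and 0.0145 for Timeless. The calls of Kcnn4, Fubp1, 1700071K18Rik and Mpp1 given above came from the same fit. With T1 and T3 as one extraction neither was called.

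The response of the parental line was set beside that of 3T3-tTA-eIF4E, measured on 4 other arrays. The means of the lines correlated at 0.50 across 15247 clones, given as a description, since the clones share arrays, printing and labelling. Across the 570 named clones, most of which were listed for a difference between the lines, the correlation was 0.15. Of the 94 clones that were higher on all 4 parental arrays and at least 1.3-fold, 93 (98.9%) had a mean above 0 in 3T3-tTA-eIF4E, and 17 (18.1%) were higher on all 4 arrays of that line. Over all 7442 clones with a mean above 0 in 3T3-tTA these shares were 61.6% and 6.61%, and 3.67% of all clones on the array were higher on all 4 arrays of 3T3-tTA-eIF4E. Of the 33 lower clones 28 (84.8%) had a mean below 0 there, and 3 (9.09%) were lower on all 4 arrays. Over all 7805 clones with a mean below 0 in 3T3-tTA these shares were 69.6% and 5.74%, and 3.76% of all clones were lower on all 4 arrays of 3T3-tTA-eIF4E. The median of the 94 clones was 0.44 in 3T3-tTA and 0.39 in 3T3-tTA-eIF4E, and that of the 33 clones was -0.46 and -0.23.

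**Figure D4:**
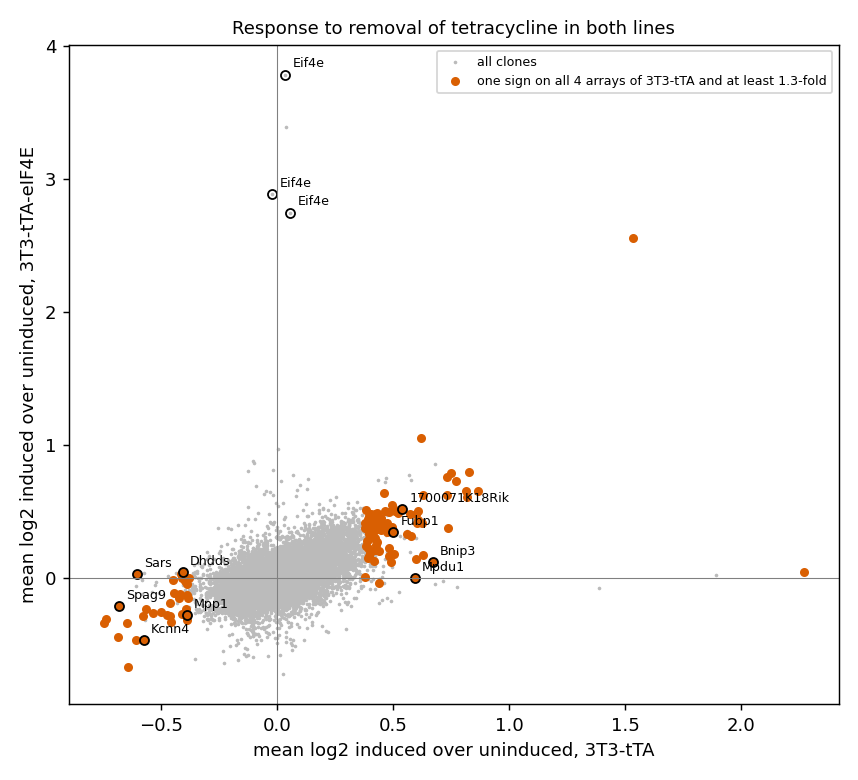
Mean log2 ratio of induced over uninduced total RNA over 4 arrays in 3T3-tTA (x axis) and in 3T3-tTA-eIF4E (y axis). Grey points are all clones, orange points the 127 clones with one sign on all 4 parental arrays and at least 1.3-fold, and black rings the named clones among them and the 3 Eif4e clones. Most orange points lay in the same direction in both lines. Bnip3, Mpdu1, Sars and Dhdds had means near 0 in 3T3-tTA-eIF4E, and Eif4e had means near 0 in 3T3-tTA. The study listed these genes for a difference between the lines, so their place apart restates that choice. Single arrays of Sars ran from -0.86 to 1.21 in 3T3-tTA-eIF4E.

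A difference between the lines was tested by limma on extraction means under all 4 assignments, with the largest p kept. It called 0 of 15247 clones (0%), and 68 (0.446%) had an unadjusted p under 0.05, among them 5 of the 94 higher and 3 of the 33 lower clones. Eif4e did not pass it either: its 3 clones differed by 2.91, 3.75 and 2.69 between the lines, with adjusted p-values of 1.00, 0.946 and 0.438 by limma, so the test missed the induced transgene. With the 8 arrays as replicates and the dye as a block, which was chosen after seeing the data and takes arrays of one extraction as independent, limma called 3 clones, 2 of them Eif4e, and 224 clones had an unadjusted p under 0.05. For Fubp1 the difference was -0.15 ± 0.32 (standard error), with a 95% interval from -0.97 to 0.67. For 1700071K18Rik it was -0.02 ± 0.23, from -0.60 to 0.56, and for Mpp1 0.11 ± 0.15, from -0.28 to 0.50. These intervals are as wide as the changes themselves, so the test does not show that the lines responded alike.

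Of the 127 clones 118 had no name here. The unnamed clone with the highest mean read 0.00 on T1, 0.33 on T3, 4.16 on T5 and 4.59 on T7, and it was at background on P11 and P15, at 1.00 and 1.27 times. The next one was even, with 1.72, 1.94, 1.04 and 1.44, a mean of 1.54 ± 0.39 or 2.90-fold (adjusted p = 0.635 by limma). It had one sign on all 4 arrays of 3T3-tTA-eIF4E too, with a mean of 2.56, and its signal was 8.66 and 14.4 times the background. Another 4 clones had means between 0.81 and 0.87 in 3T3-tTA and between 0.61 and 0.80 in 3T3-tTA-eIF4E, and none of them had one sign on all 4 arrays of that line. Taking the lower of the signals over background on P11 and P15, 91 of the 127 clones were at or above the median of the array and 36 below it.

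Printed position moved with the response in both lines. All rows of the value table were placed on the array through the scanned arrays. By printed row within a subgrid, the median ratio ran from -0.11 in row 25 to 0.06 in row 7 in 3T3-tTA and from -0.12 to 0.04 in 3T3-tTA-eIF4E, and the 25 row medians of the lines correlated at 0.90. Which clones were printed in a row and where the row lies on the slide cannot be told apart. After each array was centred by subgrid, printed row and printed column, the correlation between the lines was 0.49, and 54 of the 94 higher and 19 of the 33 lower clones still had one sign on all 4 arrays and at least 1.3-fold. Mpp1 and Dhdds, with means of -0.33 each after this centring, were then below 1.3-fold.

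**Figure D5:**
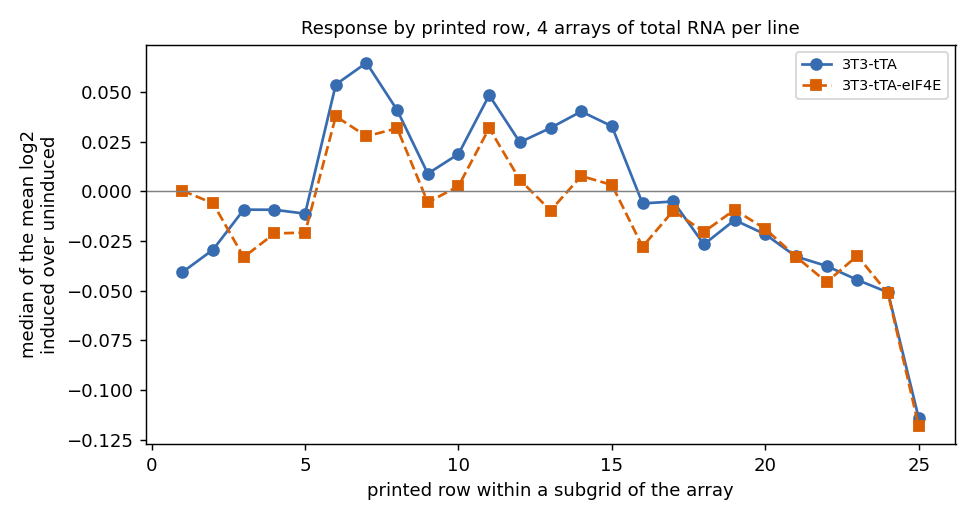
Median over clones of the mean log2 ratio of induced over uninduced total RNA (y axis) by printed row within the subgrids of the array (x axis) in 3T3-tTA (circles, solid line) and 3T3-tTA-eIF4E (squares, dashed line), 4 arrays per line. Rows 6 to 8 lay above 0 and row 25 lowest in both lines.

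The identity of the cells was read from signal over background of P11 and P15. Of the fibroblast markers, Col1a2 was at 19.8 and 12.7 times the background, Dcn at 6.52 and 3.85, Bgn at 3.51 and 2.40 and Col4a1 at 3.70 and 2.15, while Serpinf1 and Lamb1 were below 2 on both. The epithelial markers Cldn6 and Cldn7 lay between 1.06 and 1.72. Clones for markers of other cell types were not all dim: Pecam1, an endothelial marker, was at 20.01 and 8.76 and Fcgr1, a myeloid marker, at 7.61 and 3.03, with mean log2 ratios of -0.03 and -0.15 in 3T3-tTA. Signals of different clones are not comparable as levels, and the part of other cells or of cross-hybridization in these signals was not tested.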

How the data were processed

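Total RNA of induced and uninduced 3T3-tTA cells was compared on 4 two-colour arrays of 16 in the series. The authors scanned the arrays with GenePix, normalized them by limma's lowess within each array without background subtraction and deposited log2 ratios of Cy3 over Cy5 per spot. For 4 polysomal arrays the authors also deposited scanner intensities, not normalized, from which signal over background and printed position were taken. The direction of the log2 values was found on these arrays, where raw and deposited values correlated at 0.937 or more, and was assumed for the others. Arrays with the induced RNA in Cy5 were turned in sign, and the 2 spots of a clone were averaged.

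The row names deposited with the values did not belong to them: 0 of 570 clones lay under their own name. Clones were named by the per-clone mean differences that the paper's supplement lists, where these matched 1 row; 29 of 30 and 543 of 554 did. Symbols are RefSeq's (GRCm38.p6) where the accession matched, else the paper's. Rps26 kept the paper's symbol.

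Each clone was tested against 0 by limma 3.58.1 (R 4.3.3) on the means of 2 extractions, under both possible assignments of arrays, with the larger p kept, and adjusted by Benjamini-Hochberg over 15247 clones. Clones past 1.3-fold with an adjusted p below 0.1 were called. SDs are over 4 arrays. The fits were run on simulated data with independent noise for each array and changes larger than most seen here. The simulation held no shared extraction, so it does not bear on the assignment of arrays. The number of arrays limits the precision. Named are all Eif4e clones, named clones with one sign on all 4 arrays and 1.3-fold (at most 12 each way), up to 4 clones with the largest means of each list, and the list chosen between the lines. Others in the text, including Cxcl1, Mif, Hmga2, Egr1, Hdgf and further list members, were picked after their values were seen. Members and lists were chosen with earlier results of these data known. The alternatives were array replicates, a dye term, single assignments, centring, scaling, single spots, each array left out, single dyes, other thresholds and, chosen after seeing the data, centring by printed position and, between the lines, the dye as a block.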

Additional observations from a re-analysis of the deposited data

Results flagged for a closer look

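Among the clones named by the rules and the 12 list medians, 5 clones had 1 array far from the other 3, measured as the gap to the nearest array over the whole range. Chance alone flags about 1 in 20 such groups of 4, and 72 clones and 12 lists were looked at. The gap was 0.913 of the range for Plin1 on T1, 0.894 for Pttg1 on T3, 0.884 for Anapc4 on T3, 0.873 for Tfrc on T7 and 0.856 for Paip1 on T1. For Plin1, T1 was also the array whose log2 ratio of -1.02 set the mean of -0.36, and the signal on P11 and P15 was 0.61 and 15.7 times the background. Tfrc stayed above 0 on every array. Plin1 was lower on all 4 arrays of 3T3-tTA and higher on all 4 of 3T3-tTA-eIF4E, a difference of 0.457 in mean log2 ratio. The study chose this clone on these arrays as higher in 3T3-tTA-eIF4E, so the opposite signs restate that choice and are given as a description only.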

How the results depend on the processing

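The absence of called clones held for median centring, scaling, single spots, centring by printed position, arrays as replicates without a dye term, T1 and T3 as one extraction, an adjusted p under 0.05, no minimum fold and 1.5-fold. With a dye term 6 clones were called, with T1 and T5 as one extraction 210, and with each array left out between 0 and 15. Unadjusted p-values under 0.05 numbered 979, and 1991 with a dye term, 3423 with T1 and T5 as one extraction and 1238 to 1758 with an array left out (dye term kept). One sign on all arrays with 1.3-fold was found for 127 clones, and for 168 to 437 on 3 arrays, where fewer arrays have to share a sign. List medians depended on the dye of the induced RNA. In Cy3 only and Cy5 only they were 0.12 and -0.14 for extracellular matrix, -0.059 and 0.11 for growth signalling, 0.08 and -0.06 for hypoxia and glycolysis and 0.03 and -0.02 for the ubiquitin system, all turning in sign, and the sterol list was -0.10 in Cy5 only; the cause was not tested. With 1 array left out, list medians turned in sign for ribosomal proteins (-0.09 to 0.08), translation factors (-0.04 to 0.11), hypoxia and glycolysis (-0.05 to 0.05), growth-factor and stress response (-0.02 to 0.08), secretory pathway (-0.04 to 0.03), growth signalling (-0.01 to 0.02) and, barely, the ubiquitin system (-0.00041 to 0.06), and the redox median ran from -0.22 to -0.08. With T1 and T5 as one extraction 17 named clones were called. They were Kcnn4, Fubp1, 1700071K18Rik, Mpp1, Mpv17, Timeless, all clones of Ftl1, and Bnip3, Mpdu1, Spag9, Sars, Dhdds, Shisa5, Dcn and Cyhr1. The last 8 genes had been chosen partly on these arrays, so their calls carry no weight. Pfkm, Tfrc and Cdc25a, under 1.3-fold, were not called. Between the lines, arrays paired by dye (the dye as a block) gave 3 called clones, against 0; pairs within an extraction were not fitted, since the sources do not say which arrays share one. By sample number, no paired analysis was possible because the parental comparison lies within 1 group and the lines share no sample numbers. The 2 extractions limit all p-values, and dim spots limit Fubp1, Mpp1, Dhdds, Mpdu1, Spag9, Sars and Shisa5. Cyhr1 was dim on P11 only.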
